A study of Homo sapiens with 16 samples.

Results

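CTCF sites at promoters were the regions bound by CTCF that touched the start of a protein-coding gene. Peaks of the 4 CTCF lists were joined into 29064 sites wherever they shared 1 bp or more, and a site was kept when it overlapped a promoter, taken as 1000 bp before to 500 bp after the transcription start site (TSS) of any protein-coding transcript (hg19). This left 3155 promoter sites, 10.9% of all sites, beside 25909 other sites. The promoter sites lay at 3126 of the 19756 protein-coding genes, and 264 of these genes had 2 or more of them.

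The series mapped CTCF and p53 by chromatin immunoprecipitation and sequencing (ChIP-seq) in MCF10A, an immortalised and non-transformed human mammary epithelial line, and in MCF10A cells made to express the oncogenic G12V mutant of HRAS (G12V cells), to ask whether binding changes with transformation. The oncogene was brought in by lentiviral transduction, and the transduced culture was selected with hygromycin, so G12V was a selected culture from the same line and both cell types share the MCF10A background. CTCF was precipitated from cells with no drug treatment in the labels, with 2 replicates in each cell type, and cells for p53 were first exposed to Nutlin, a drug that raises the level of p53. Each of the 8 ChIP libraries had its own list of peaks, and the 8 input libraries entered only through the peak caller.

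CTCF is a DNA-binding protein with a row of zinc fingers, and its binding motif is long and has a direction. It halts the cohesin ring as cohesin extrudes chromatin loops, and it marks insulators and the borders of topological domains. It also binds close to the start of many genes, where it can bring distal enhancers to the promoter, and its binding is known to be sensitive to methylation of CpG bases within the motif.

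The CTCF lists differed in length more within a cell type than between the cell types. They held 11346 and 20136 peaks in MCF10A replicates 1 and 2, and 12004 and 27678 peaks in G12V replicates 1 and 2. The read depth at which the peaks were called was worked out from the fold and p-value of the peaks. It stands for the smaller of ChIP and input depth, and was taken as the 1st percentile over the peaks. It came to 12.1 and 10.9 M reads for MCF10A, and for G12V to 13.5 and 10.7 M (mega) reads, so the longer lists were not the deeper ones. The medians over the peaks were 24.3 and 23.8 M in MCF10A and 26.9 and 24.2 M in G12V, in the same order. A site missing from a list was below the caller's threshold in that library, and was not shown to be unbound. The cell types of the libraries were taken from their titles, since no expression was measured here.

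The sequences under the promoter sites come first. A CTCF motif was a match of the 12-base CTCF consensus on either strand, with at most 1 mismatch, in a window of 150 bp centred on the strongest summit of the site. Among the sites that the naming rule chose, 21 carried a match, and 5 of these had no mismatch. These 5 are printed 5′ to 3′ on the strand of the match, with the 12 motif bases in capitals and 9 bases on each side.
TMEM141: cctgactccCCAGCAGGGGGCgccaagtca
RFX7: ccccagcagCCACTAGAGGGCtcacgaagc
TPR and ODR4: gacactgagCCACTAGAGGGCatcggtccc
STAG1: tggaaaatgCCACCAGATGGCgggttagga
RPLP0: agctccagcCCAGCAGGTGGCagcagctca
In hg19 they lie at chr9:139686285-139686314 (plus strand) in an intron of TMEM141, chr15:56538375-56538404 (plus strand) in an intron of RFX7, chr1:186344738-186344767 (plus strand) at TPR and ODR4, chr3:136471182-136471211 (minus strand) in an untranslated exon of STAG1, and chr12:120639133-120639162 (minus strand) just upstream of RPLP0. All 5 sites were called in all 4 libraries.

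The commonest departure from the consensus at promoter sites was at the third base, counted from 1 at the 5′ end of the match. The substitution A3G was carried by 18.8% of the motif matches at promoter sites and by 3.98% of those at other sites. It was also the departure in 6 of these 21 matches, which are shown because they put this change beside the CpG pair that often follows the motif.
ACTB: gtccttaggCCGCCAGGGGGCgccggcgcg
ESCO1: aagcggccgCCGCTAGGGGGCgccgccact
BBC3: ccgcactggCCGCCAGGGGGCgctgccgag
TP53I3: aggcgctggCCGGCAGGGGGCgctgcggtg
SPOCD1: gttcctgccCCGGCAGAGGGCgccctcttc
ALDH1A2: cggtcccggCCGGCAGAGGGCagcaactgg
They lie at chr7:5569362-5569391 (plus strand), chr18:19180978-19181007 (minus strand), chr19:47733903-47733932 (plus strand), chr2:24307330-24307359 (minus strand), chr1:32281712-32281741 (plus strand) and chr15:58358671-58358700 (minus strand) of hg19. In the first 5 the last base of the motif was followed by G, which makes a CpG pair, and in ALDH1A2 it was not.

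The first comparison was between promoter sites and the other CTCF sites, in sequence. Fewer promoter sites carried the motif. It was found at 37.7% of promoter sites (1188 of 3155, 95% interval 36.0% to 39.4%) and at 54.1% of other sites (14014 of 25909, 53.5% to 54.7%), against 52.3% of all sites. The promoter share was thus lower, by a difference of -16.4 percentage points (two-sided Fisher's exact test with Benjamini-Hochberg adjustment for 3 tests, adjusted p = 6.15e-68). The test takes sites as its units and holds no replicate error. In windows of the same length 2000 bp away from the summits the motif was found at 1.43% beside promoter sites and 1.21% beside other sites, so both classes were far above their surroundings. The difference was -6.88 points with a promoter of 5000 bp either side and -8.75 points when no mismatch was allowed.

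The gap was no narrower among the sites that every library called. There 50.9% of promoter sites (553 of 1087) and 70.7% of other sites (4890 of 6919) carried the motif, a difference of -19.8 points (the same test, Fisher's exact, adjusted p = 2.33e-36). Among promoter sites the share was 22.8% where 1 library had a peak, 28.6% with 2, 41.8% with 3 and 50.9% with 4, and among other sites it was 37.1%, 51.8%, 61.1% and 70.7%. The motif share was thus higher the more libraries called a site in both classes, and promoter sites were lower at each step.

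**Figure D1:**
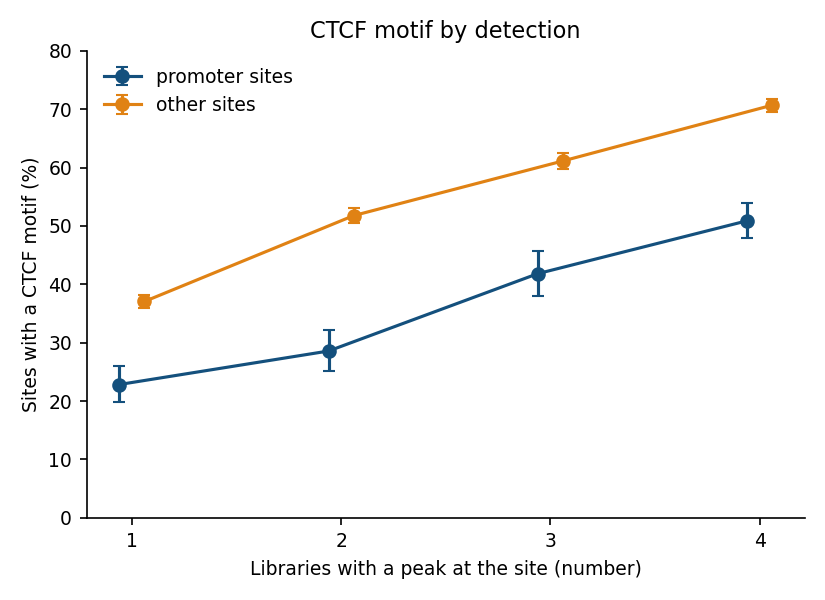
Share of sites with a CTCF motif (y axis, percent) by the number of CTCF libraries with a peak at the site (x axis), for promoter and other sites. Bars are 95% binomial intervals over sites; promoter sites run from 22.8% to 50.9% and lie below other sites, which run from 37.1% to 70.7%, at each number of libraries.

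Base composition differed with the class. In this 150 bp window the median GC content was 64.7% at promoter sites and 51.3% at other sites, and the ratio of observed to expected CpG pairs was 0.710 and 0.245. Promoter sites without a motif had a higher CpG ratio than those with a motif, with medians of 0.750 and 0.619. At other sites these medians were 0.232 and 0.255. The part of base composition in the motif difference was not tested.

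The motif matches themselves also differed. At promoter sites 24.6% of the matches had no mismatch (292 of 1188, 22.2% to 27.1%), and at other sites 33.3% did (4665 of 14014, 32.5% to 34.1%). The third base was A in 68.9% of the promoter matches and in 88.0% of the others. A CpG pair at the end of the motif was present in 52.5% of promoter matches (624 of 1188, 49.6% to 55.4%) and in 28.4% of the others (3979 of 14014, 27.6% to 29.1%). Matches sat at the same distance from the summit in both classes, with a median of 19 bp at promoter sites and 20 bp at other sites. These shares were not tested between the classes.

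The direction of the motif followed that of the gene more often than not. Of 1070 promoter sites with 1 match and promoters on 1 strand only, 615 had the consensus on the strand of the gene, which is 57.5% (95% interval 54.5% to 60.5%, exact two-sided binomial test against an even split, p = 1.12e-06). The share was 60.9% where the summit lay more than 100 bp upstream of the TSS (371 of 609, 56.9% to 64.8%) and 60.6% within 100 bp of it (166 of 274, 54.5% to 66.4%). Downstream by more than 100 bp it was 41.7% (78 of 187, 34.6% to 49.1%), so there the opposite direction was the more frequent. At sites called in all 4 libraries 63.0% followed the gene (313 of 497, 58.6% to 67.2%). The overall share was 51.97% with a promoter of 5000 bp either side and 52.98% with all transcripts of protein-coding genes. The shares by position were taken after the overall share was known and were not tested against each other. In the named sequences the consensus ran with the gene at TMEM141, STAG1, RPLP0, ESCO1, TP53I3 and ALDH1A2, and against it at RFX7, ACTB, BBC3 and SPOCD1. At TPR and ODR4, whose promoters lie on both strands, no direction was counted.

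Promoter sites crowded just upstream of the TSS. The median summit lay 109 bp upstream (the middle of the distribution ran from 351.5 bp upstream to 35.5 bp downstream), and 70.4% of the summits were upstream (2221 of 3155). The promoter reaches 1000 bp upstream but 500 bp downstream, which by itself puts more summits upstream. Distances were taken to the nearest TSS of the overlapped promoters, which favours short distances. Within 100 bp of the TSS there were 430 sites per 100 bp, against 261 from 100 to 500 bp upstream, 118 from 100 to 500 bp downstream and 92.6 from 500 to 1000 bp upstream. The fullest 50 bp lay from 150 to 100 bp upstream, with 319 sites. The summit itself lay inside a promoter at 2860 sites, and the rest touched a promoter with their edge only. From 1000 bp upstream to 500 bp downstream, the motif share was lowest from 100 to 500 bp downstream, at 32.1%, was 35.7% within 100 bp and 35.9% from 100 to 500 bp upstream, and was 44.5% from 500 to 1000 bp upstream. For summits farther from the nearest TSS the share was 58.3% over 1000 bp upstream (77 of 132) and 38.9% over 500 bp downstream (70 of 180).

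**Figure D2:**
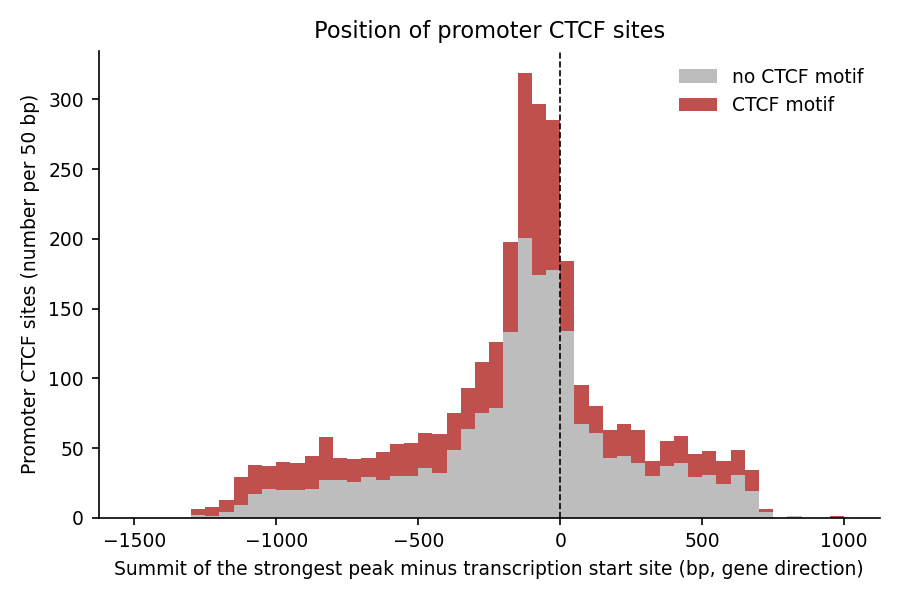
Number of promoter CTCF sites per 50 bp (y axis) by the distance from the nearest TSS to the strongest summit (x axis, bp in the direction of the gene, dashed line at the TSS), split by the CTCF motif; 2 sites lie outside the plotted range. The pile just upstream of the TSS, with 319 sites in the fullest 50 bp, holds sites with and without the motif.

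Most promoter sites belonged to 1 gene (2908 of 3155), and 247 touched the promoters of 2 or more. At 201 sites (6.37%) the promoters were on both strands, as at divergent gene pairs. Of these 27.4% carried the motif (55 of 201, 21.3% to 34.1%), against 38.4% of the sites with promoters on 1 strand (1133 of 2954, 36.6% to 40.1%). Among sites of all 4 libraries the most genes were touched at chr2:190525851-190526147, upstream of ASNSD1, of ASDURF, whose reading frame lies in the same transcript unit, and of ENSG00000286165, a gene without a symbol. No motif was found there, and the fold enrichment over background stood at 8.92 and 13.8 in MCF10A and at 10.9 and 7.51 in G12V. The site at chr1:186344472-186344947, shared by TPR, a protein of the nuclear pore basket, and ODR4, had values of 10.9 and 17.8 in MCF10A and 8.75 and 20.5 in G12V. The site at chr17:73511784-73512238, between TSEN54, a subunit of the tRNA splicing endonuclease, and CASKIN2, had 14.6 and 16.8 in MCF10A and 10.6 and 22.7 in G12V, without a motif.

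The second comparison was how often the sites were detected again. Promoter sites were called in all 4 libraries more often than other sites, 34.5% of them (1087 of 3155, 32.8% to 36.1%) against 26.7% (6919 of 25909, 26.2% to 27.2%) and 27.5% of all sites. The excess was 7.75 percentage points (adjusted p = 2.06e-19 by Fisher's exact test, sites as units), and in lists of equal length it was 4.15 points (adjusted p = 0.00017 by the same test). Of the remaining promoter sites, 648 were called in 3 libraries, 693 in 2 and 727 in 1, and 570 of the last were in the longest list, G12V replicate 2, alone. Sites called only in that list lay at promoters in 7.71% of cases, against 13.6% of the sites of all 4 libraries. Promoter sites were about as wide as the others, with medians of 378 bp and 372 bp.

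**Figure D3:**
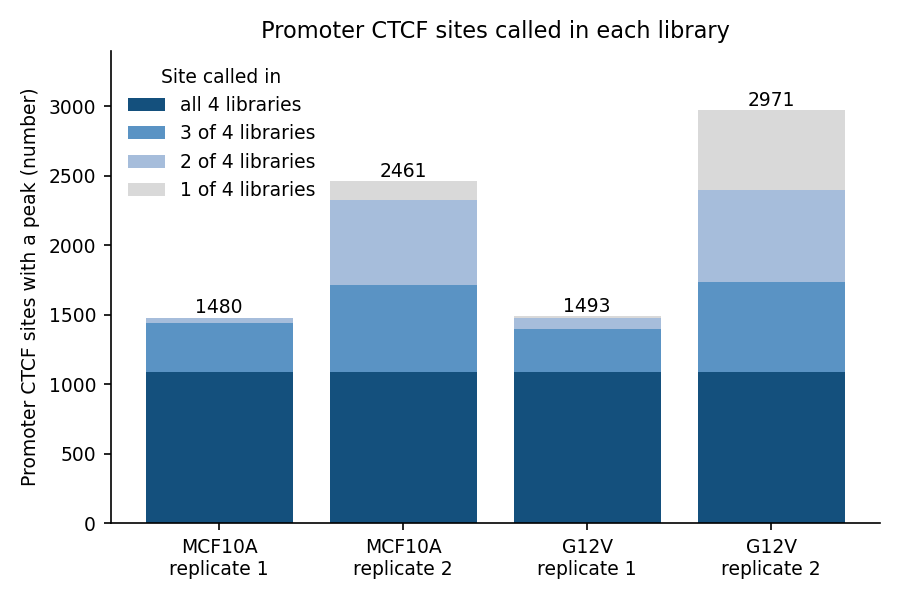
Promoter CTCF sites with a peak in each CTCF library (y axis, number), split by how many of the 4 libraries called the site. The 1087 sites of all 4 libraries form the same base in each bar, and the bars of both replicates 2 (2461 and 2971 sites) stand above those of both replicates 1 (1480 and 1493).

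Enrichment at promoter sites was close to that at other sites. The median fold enrichment, a ratio of the summit pileup to the local background, was 7.30 at promoter sites and 7.08 at other sites in MCF10A replicate 1, 8.84 and 8.89 in MCF10A replicate 2, 7.29 and 7.10 in G12V replicate 1, and 9.991 and 9.990 in G12V replicate 2. Peaks were also ranked within each list by their p-value, with 100 as the strongest. The median rank of promoter peaks was above that of other peaks by 5.52 and 0.228 percentiles in MCF10A and by 5.54 and 1.67 in G12V. All 4 differences had the same sign, and their mean of 3.24 was as extreme as 4 libraries can give (exact two-sided sign-flip permutation test, 2 of 16 sign patterns), so the threshold of 0.05 could not be reached. The rank difference was larger in both replicates 1, which had the shorter lists.

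The presence of the motif went with stronger peaks among promoter sites in general. In G12V replicate 2 the median rank percentile was 63.6 at promoter sites with a motif and 42.6 at those without, and in MCF10A replicate 1 it was 59.4 and 50.0. Among the promoter sites of all 4 libraries the medians were 65.6 and 61.6 in MCF10A replicate 1, 71.1 and 70.5 in MCF10A replicate 2, 65.1 and 59.9 in G12V replicate 1, and 80.04 and 77.1 in G12V replicate 2. No match was found at 534 of these 1087 sites.

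By the sum of ranks the leading site was at TMEM141, which codes for a transmembrane protein (chr9:139686087-139686737, summit 544 bp downstream of the TSS, intronic). Peaks there reached a fold enrichment of 13.2 and 26.9 in MCF10A and of 30.9 and 40.9 in G12V, at ranks 29, 17, 2 and 14. The following 3 had no motif in the 150 bp searched. The site upstream of KDM3B, a histone H3K9 demethylase (chr5:137687954-137689016), had values of 22.2 and 14.9 in MCF10A and 21.6 and 24.7 in G12V, and was the strongest peak of the first MCF10A list. The site at CEACAM5, the carcinoembryonic antigen (chr19:42210533-42211520), had values of 22.6 and 21.9 in MCF10A and 28.5 and 44.03 in G12V, and touched the promoter with its edge, since its summit lay 1669 bp upstream. The site upstream of STUM (chr1:226735298-226735794) had 13.5 and 27.8 in MCF10A and 8.38 and 38.4 in G12V. The site at RFX7, a winged-helix transcription factor (chr15:56538164-56538640), had 9.81 and 31.5 in MCF10A and 17.2 and 33.7 in G12V. The levels of the lists were not on the same scale, since the median over all promoter sites of all 4 libraries came to 7.68 and 11.1 in MCF10A and 7.62 and 14.4 in G12V.

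The third comparison was between MCF10A and G12V. Promoter sites with a peak numbered 1480 and 2461 in MCF10A and 1493 and 2971 in G12V, which is 1970.5 ± 694 and 2232 ± 1045 (SD, n = 2 each). The log2 ratio of G12V to MCF10A was 0.18, and replicates of 1 cell type lay further apart than that (exact two-sided permutation test, p = 0.667, where 2 against 2 libraries cannot go below 0.333). It turned to -0.14 without MCF10A replicate 1, to -0.40 without G12V replicate 2 and to -0.09 in lists of equal length. Promoters held 13.1% and 12.2% of the sites of the MCF10A libraries and 12.5% and 10.7% of those of the G12V libraries, or 12.7% ± 0.594 and 11.6% ± 1.23 (SD, n = 2 each). The difference of -1.06 points did not exceed the replicate spread (p = 0.667, exact permutation test). Between libraries of the same replicate number the G12V share was the lower both times, but these numbers were not taken as pairs.

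Few promoter sites followed the cell type. MCF10A-specific sites were those with a peak in both MCF10A lists and in no G12V list, and G12V-specific sites the reverse. There were 12 MCF10A-specific promoter sites (0.261% of all CTCF sites were MCF10A-specific, 0.380% of promoter sites) and 63 G12V-specific ones (3.33% of all sites, 2.00% of promoter sites). Pairs of 1 MCF10A and 1 G12V library, whose sites do not follow the cell type, shared promoter sites that no other library had, and these numbered 1, 14, 19 and 584 in the 4 pairs, the last for both replicates 2. The MCF10A-specific number rose to 146 without MCF10A replicate 1 and to 348 without G12V replicate 2, and the G12V-specific number to 354 without MCF10A replicate 2 and to 633 without G12V replicate 1. Leaving out a library loosens the definition of a specific site, so a rise was built in. When each list was cut to its 11346 strongest peaks, 87 promoter sites were MCF10A-specific and 46 G12V-specific, and the mixed pairs gave 40, 49, 51 and 102. The specific numbers were thus inside the range of the pairs that mix the cell types, both as deposited and in lists of equal length.

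Of the MCF10A-specific promoter sites 4 of 12 carried the motif, and of the G12V-specific ones 29 of 63. The leading MCF10A-specific site was at ALDH1A2, an enzyme of retinoic acid synthesis (chr15:58358509-58358925, 573 bp upstream of a TSS in an intron), with a fold enrichment of 9.30 and 16.1 at ranks 3555 and 2748. The site at SFRP1, a secreted inhibitor of Wnt signalling (chr8:41164167-41164538, coding exon), had 7.69 and 9.47, and the site at SYNM, which codes for the intermediate filament protein synemin (chr15:99644918-99645274, intronic), had 6.50 and 11.9. Neither of the latter had a motif. None of the 3 reached the top 2000 peaks of a list. The other 9, given to complete the class, were at MEAF6, C1orf210, AQR, SQOR, ELMO3, GDF15, TCF7L1, PLAC8 and MEGF10. Over all 12 the fold enrichment ran from 4.22 to 9.30 in replicate 1 and from 4.77 to 16.1 in replicate 2.

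The 5 leading G12V-specific promoter sites had a higher fold enrichment in replicate 2 of G12V than in replicate 1. At ADORA1, the adenosine A1 receptor (chr1:203095450-203095876), the fold enrichment in the G12V replicates was 5.57 and 9.57. The site at CNGB1, a subunit of a cyclic nucleotide-gated channel (chr16:57979719-57980085), had 5.63 and 17.1. The site at SPOCD1 (chr1:32281586-32281911) had 7.29 and 11.3, and carried the A3G match shown above. The site at RAB37, a small GTPase of vesicle traffic (chr17:72733689-72734117), had 4.97 and 14.8, and its match departed from the consensus by G11A. The site at CABIN1, an inhibitor of calcineurin (chr22:24551527-24551904), had 4.95 and 12.5 and no motif. Their ranks ran from 5157 to 11091 of 12004 peaks in replicate 1 and from 6493 to 11859 of 27678 in replicate 2.

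Enrichment was then compared site by site where all 4 libraries had a peak. The fold enrichment was put on the log2 scale, quantile-normalised and tested with limma over all 8006 such sites, of which 1087 were promoter sites. No promoter site passed an adjusted p of 0.05 (0 of 1087, and 0% of all sites tested, limma with Benjamini-Hochberg adjustment), and the smallest adjusted p was 0.72. At an unadjusted p under 0.05 there were 41 promoter sites, or 3.77%, against 5.23% of all sites. The median difference, G12V minus MCF10A, was -0.03 at promoter sites and -0.01 over all sites, with single promoter sites from -1.58 to 1.43. The median standard error of a site was 0.46 with 2 libraries per cell type, which is large beside these differences, so a change of the size of most of them was not detectable.

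The promoter sites with the smallest p-values are given as values only. At DHX16, an RNA helicase of the spliceosome (chr6:30640774-30641144), the values came to 3.95 and 5.17 in MCF10A and 8.28 and 23.1 in G12V, a log2 difference of 1.43 ± 0.48 (SE, limma adjusted p = 0.72). At LTBP3, which binds latent TGF-beta (chr11:65308262-65308725), they came to 3.30 and 6.49 in MCF10A and 9.53 and 17.5 in G12V, and at MC3R, a melanocortin receptor (chr20:54823005-54823424), they came to 3.84 and 12.2 against 10.7 and 27.5. In the opposite direction CCDC124 (chr19:18043316-18043687) had 14.7 and 14.6 in MCF10A and 4.18 and 7.69 in G12V, a log2 difference of -1.58 ± 0.47 (SE, limma adjusted p = 0.72). IL18R1, the receptor of interleukin 18 (chr2:102972028-102972482), had 12.8 and 18.1 in MCF10A and 4.47 and 9.38 in G12V. ACTB, the cytoplasmic actin (chr7:5569130-5569533), had 11.8 and 17.3 in MCF10A and 2.98 and 15.6 in G12V, so its low value rested on G12V replicate 1. These sites were picked by their p-values, so the gap between the cell types at them is no evidence of a change.

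**Figure D4:**
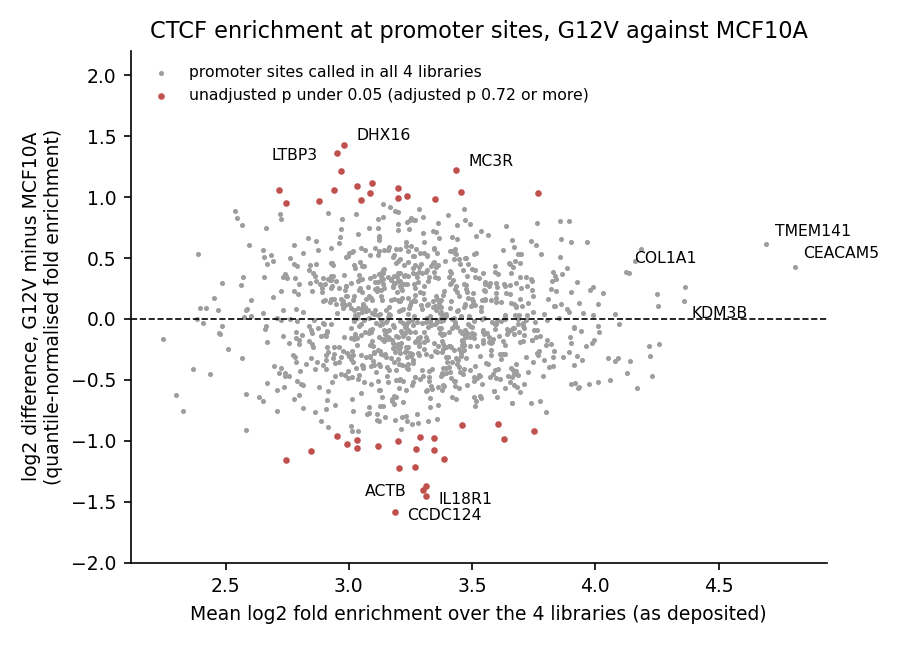
Difference in log2 fold enrichment between G12V and MCF10A (y axis, quantile-normalised) against the mean log2 fold enrichment over the 4 libraries as deposited (x axis), 1 point for each of the 1087 promoter sites called in all 4 libraries. The 41 points in red have an unadjusted p under 0.05, and none passes after adjustment; the strongest sites, TMEM141 and CEACAM5, lie at the right.

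The genes with a promoter site were next set beside lists of genes. Over all protein-coding genes 15.8% had a promoter CTCF site and 5.71% had one called in all 4 libraries. Among the 16 genes of CTCF, the cohesin subunits and their regulators, 7 had a site (43.8%, 95% interval 19.8% to 70.1%) and 4 had one in all 4 libraries. The 53 clustered protocadherins, neuronal adhesion genes chosen by promoter, had a site at 18 (34.0%, 21.5% to 48.3%), of which 1 was in all 4 libraries and 1 of the 18 sites had a match of the consensus. Ribosomal protein genes had a site at 22 of 84 (26.2%, 17.2% to 36.9%). Genes of the ZNF series, which code for zinc finger proteins, had one at 56 of 512 (10.9%, 8.37% to 14.0%), replication histones at 4 of 69 (5.80%, 1.60% to 14.2%) and olfactory receptors at 5 of 391 (1.28%, 0.416% to 2.96%). The intervals for the cohesin list, the protocadherins and the ribosomal genes lay above 15.8%, and those for the ZNF genes, the histones and the olfactory receptors below it. The place of the protocadherins rests on G12V replicate 2: without that library 8 of 53 had a site (15.1%, 6.75% to 27.6%), against 13.2% of all genes, a setting chosen after seeing the data. The intervals of the other 5 lists stayed on the same side of the share of all genes without any 1 library. No list was tested. The intervals were not adjusted for the number of lists, and they take the genes of a list as independent. The lists were also chosen with earlier results of these data known.

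The remaining lists had intervals that held the share of all genes. HOX genes had a site at 6 of 39 (15.4%, near the 15.8% of all genes), with 5 in all 4 libraries, at HOXA5, HOXA10, HOXB5, HOXC5 and HOXC10. The latter is 12.8% against 5.71% of all genes, but it rests on 5 genes, has no interval here and was not tested. Feedback regulators of the RAS-MAPK pathway had a site at 4 of 21, namely DUSP1, SPRY1, EPHA4 and PHLDA1, p53 targets at 4 of 20, epithelial genes at 4 of 25, mesenchymal genes at 5 of 20, and cell cycle genes at 2 of 25. In all 4 libraries these 5 lists had a site at 1, 2, 1, 1 and 0 genes. PHLDA1 was called in G12V replicate 2 alone. Without that library the RAS-MAPK list had a site at 3 of 21, the epithelial list at 3 of 25 and the mesenchymal list at 3 of 20. The list of promoters at which CTCF has been studied before had a site at 3 of 11. GDF15, a stress-induced cytokine and p53 target (chr19:18496942-18497272), had an MCF10A-specific site without a motif, with a fold enrichment of 4.22 and 8.14 at ranks 11182 and 12111.

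**Figure D5:**
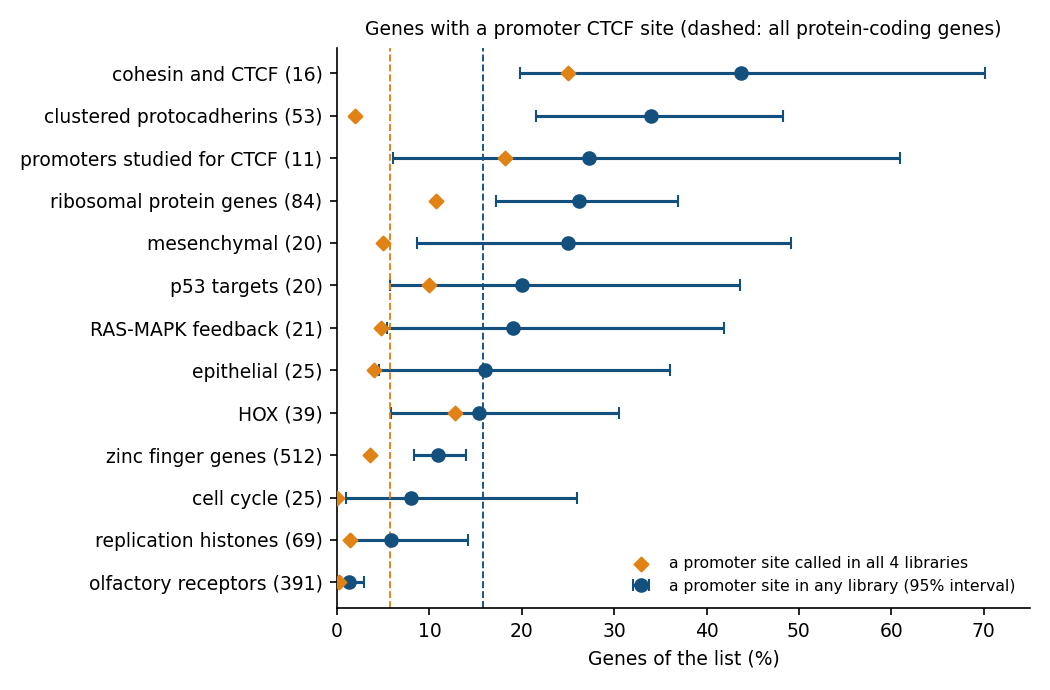
Share of the genes of each list (x axis, percent; number of genes in parentheses) with a promoter CTCF site in any library (circles, 95% binomial intervals) and in all 4 libraries (diamonds). Dashed lines give the shares of all protein-coding genes, 15.8% and 5.71%; the cohesin list is highest at 43.8% and the olfactory receptors lowest at 1.28%.

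Of the 16 genes of CTCF, the cohesin subunits and their regulators, 7 held a promoter site, and 4 held one in all 4 libraries. The others had none, among them the cohesin subunits RAD21, SMC1A and SMC3. STAG1, a subunit of cohesin, had a site over its TSS (chr3:136470995-136471480, fold enrichment 15.7 and 8.57 in MCF10A, 4.47 and 13.8 in G12V), and its exact match of the consensus lay 4 bp from the summit. ESCO1, which acetylates cohesin, had one 350 bp upstream (chr18:19180795-19181237) with 4.86 and 13.8 in MCF10A and 9.94 and 23.95 in G12V. PDS5A and PDS5B, which regulate the release of cohesin, had sites 66 and 71 bp upstream, both in all 4 libraries and both without a motif. Values reached 8.32 and 5.08 in MCF10A and 9.61 and 17.5 in G12V at PDS5A (chr4:39979121-39979818), and 11.7 and 8.16 in MCF10A and 10.3 and 15.3 in G12V at PDS5B (chr13:33160332-33160648). The gene of CTCF itself had a site 112 bp downstream of its TSS (chr16:67596440-67596923) in 3 libraries, with 10.9 in MCF10A replicate 2 and 5.47 and 14.7 in G12V, and no motif in a stretch of 80% GC. STAG2 (3 libraries, with a peak missing in G12V replicate 1) and NIPBL, which loads cohesin (both replicates 2 only), completed the 7. Their classes did not follow the cell type, and 2 of the 7 sites carried a motif.

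The protocadherin sites were mostly at the edge of detection. Of the 18 sites 10 were called in G12V replicate 2 alone, and 16 had their summit within 100 bp of the TSS. PCDHAC1 (chr5:140305929-140306394) was the member called in all 4 libraries, with a fold enrichment of 5.46 and 19.3 in MCF10A and 12.3 and 8.98 in G12V. PCDHGB7, named after its values were seen, had 21.4 in MCF10A replicate 2 and 10.3 and 22.2 in G12V. The median GC content over these sites was 47.3%, below that of the promoter sites as a whole at 64.7%. The genes lie in arrays of similar copies, where reads that align to more than 1 place were left out by the authors. Whether this affected the peaks here was not tested.

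Other named promoters had sites in all 4 libraries. COL1A1, a fibrillar collagen, was the strongest of its list (chr17:48277814-48278485), with 10.2 and 20.2 in MCF10A and 11.7 and 38.4 in G12V and no motif. HOXB5 (chr17:46671219-46671672) had 11.1 and 18.75 in MCF10A and 9.20 and 27.04 in G12V, and HOXC5 (chr12:54426324-54426749) had 11.5 and 18.0 in MCF10A and 4.57 and 12.7 in G12V. HOXA10 (chr7:27219305-27219736) had 7.03 and 12.4 in MCF10A and 5.83 and 11.4 in G12V. Among ribosomal protein genes, RPL26 (chr17:8286469-8287117) had 6.38 and 21.9 in MCF10A and 6.96 and 20.3 in G12V. RPLP0 (chr12:120638957-120639380) had 9.14 and 8.95 against 8.62 and 23.3, and RPL38 (chr17:72199467-72199871) had 6.57 and 9.21 against 10.5 and 16.8. The other leaders of their lists were ZNF219, ZNF843 and ZNF343, JUP (plakoglobin, of cell junctions), DUSP1 (a MAP kinase phosphatase), H1-10 (a linker histone) and OR51D1, and their fold enrichment ran from 4.31 at H1-10 to 23.4 at ZNF843. At none of these sites did limma give an adjusted p under 0.05.

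Of the promoters studied before, APP, which codes for the amyloid precursor protein, had a site 136 bp upstream (chr21:27543023-27543408) in all 4 libraries. Peaks reached 9.14 and 11.4 in MCF10A and 11.7 and 11.02 in G12V, and no match of the consensus was found there in a window of 82% GC. IGF2 had a site (chr11:2171431-2171801) with a peak in MCF10A replicate 1 and G12V replicate 2, at 6.33 and 10.3.

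Last, the promoter CTCF sites were set beside the p53 peaks of the same cell type. Hardly any overlapped. In MCF10A 1 of 2503 promoter sites with a CTCF peak overlapped a p53 peak in each p53 replicate (0.0400%), and in G12V 3 and 15 of 3005 did in replicates 1 and 2 (0.0998% and 0.499%). At other CTCF sites 0.0889% and 0.0556% did so in MCF10A, and 0.0361% and 0.273% in G12V. The promoter share was below the other share in both MCF10A libraries and above it in both G12V libraries, and these differences rest on 1 to 15 sites and were not tested. Both MCF10A replicates count the same site, at PLK3, and it is also among the 3 and the 15 of G12V. The libraries thus do not count separate sites. With any p53 library counted, 17 promoter sites (0.539%, 0.314% to 0.861%) and 74 other sites (0.286%, 0.224% to 0.358%) overlapped a p53 peak.

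The overlap with all 4 p53 libraries occurred at 1 promoter site, 565 bp upstream of PLK3, a polo-like kinase and p53 target (chr1:45265314-45265724). The p53 peaks there reached 17.6 and 11.1 in MCF10A and 23.5 and 40.003 in G12V. CTCF was called in replicate 2 of each cell type, at 15.6 in MCF10A and 5.23 in G12V, without a motif. At TAFA2 (chr12:62586491-62586728) and at TNFRSF10D, a decoy receptor of the death ligand TRAIL (chr8:23020887-23021245), 3 p53 libraries had a peak, and CTCF was called in G12V replicate 2 alone, at 8.43 and 11.3. Among the p53 targets of the list, BBC3 (chr19:47733646-47734086) had CTCF in all 4 libraries, at 12.6 and 19.3 in MCF10A and 18.2 and 18.7 in G12V, and no p53 peak overlapped this site. At TP53I3 (chr2:24307138-24307727) CTCF was at 5.11 and 11.3 in MCF10A and 9.61 and 10.1 in G12V, and a p53 peak overlapped in G12V replicate 2.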

How the data were processed

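CTCF and p53 ChIP-seq was done by the authors in MCF10A and G12V cells. Per the submitters' processing notes and the methods, reads were aligned to hg19 with Bowtie, keeping unique alignments, and peaks were called on each library against its input with MACS2 at its default q-value of 5%. Each deposited list holds 1 replicate. The deposited lists give a score (the −log10 q multiplied by 10 and truncated), a fold enrichment (ratio of pileup to background), −log10 p and −log10 q for each peak, all computed by the authors.

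Groups and replicate numbers came from the titles. Sites, promoters and motifs were defined as described in the report, with GENCODE release 44 on GRCh37 (transcripts of type protein_coding, chromosomes 1 to 22 and X). The strongest peak of a site had the highest −log10 p. The motif was the CTCF consensus with at most 1 mismatch, and its letters came from the GRCh37 sequence. Differences in shares were tested by Fisher's exact test, two-sided (Benjamini-Hochberg over 3 tests, scipy 1.17.1), numbers per library with exact permutation tests, and enrichment with limma 3.58.1 (trend, R 4.3.3), which was tested on simulated data. The 95% intervals of shares follow Clopper and Pearson and express counting error only. No read counts were used; depth was solved from the fold and −log10 p of 1 peak in 5, with the narrowest peak as fragment length and a mappable genome of 2.7 Gb.

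Replicates are called biological by the methods. Replicate numbers were not taken as pairs, since no label ties a number to a shared batch. Deviations of same-numbered libraries from their group means, in quantile-normalised log2 fold, had a correlation of 0.031 over the 8006 sites of all 4 libraries. Normalisation removes shifts of a whole library, and sites missing from a list did not enter. The correlation thus cannot exclude an effect shared within a replicate number. Numbers of sites, in contrast, were alike within each number. Named sites were the leaders by summed rank of each class (5 or 3 per class), the 3 smallest limma p in each direction, the sites touching most genes or p53 peaks, and list members. A few others complete a class or list and were picked after their values were seen. The sites and lists were chosen with earlier results of these data known. Alternatives changed the promoter, the transcripts, the threshold, the merging, the motif, the normalisation and the libraries used. Results for 1 list member are not reported here.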

Additional observations from a re-analysis of the deposited data

Results flagged for a closer look

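The share of CTCF sites that overlap a p53 peak, promoter sites minus other sites, had opposite signs in the cell types. It was -0.0490 and -0.0156 percentage points with the MCF10A p53 replicates and 0.0638 and 0.227 points with the G12V p53 replicates. The mean of G12V lay above that of MCF10A by 0.177 points. The difference between the cell types was not tested, and it rests on 1, 1, 3 and 15 promoter sites. The site at PLK3 is counted in each of these numbers and is the only one in MCF10A, so its replicates are not separate observations. The p53 lists differ in length, and with p53 lists of equal length the mean over all 4 libraries was 0.0164 points in place of 0.0564. This mean does not show whether the signs of the cell types stayed opposite.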

How the results depend on the processing

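Of 138 values recomputed under the alternatives, 127 kept their direction and their side of the threshold, or met a looser rule where no test was run. Counts had to stay within 1.5 times. The median limma change had to move by less than the median standard error of a site. The p53 overlap had to move by less than the SD over the 4 p53 libraries. The median limma change turned positive without MCF10A replicate 1 (0.0053), without G12V replicate 2 (0.0466) and without normalisation between libraries (0.17), which this rule allowed. The log2 ratio of promoter sites between G12V and MCF10A ran from -0.40 to 0.59 when each library was left out, and was -0.0912 in lists of equal length. The MCF10A-specific number ran from 12 to 348 and the G12V-specific one from 81 to 633 when each library was left out. They were 22 and 194 with a promoter of 5000 bp either side, the MCF10A-specific number was 87 in lists of equal length, and the G12V-specific one was 103 with all transcripts of protein-coding genes. A wider promoter takes in more sites by construction, and leaving out a library loosens the definition of a specific site. The motif difference stayed below 0 under each of its 13 alternatives, and was -6.88 points with a promoter of 5000 bp either side and -10.96 with all transcripts. The share of motifs on the gene strand was 51.97% and 52.98% in these settings (exact binomial test, p = 0.0371 and 0.0179), 59.0% where the summit had to lie in the promoter (an alternative chosen after seeing the data), and 57.4% to 59.1% when each library was left out. The rank difference was 1.84 percentiles when peaks were ranked by fold (exact permutation test, p = 0.375). The excess of promoter sites called in all 4 libraries was 4.15 points in lists of equal length. The share of CTCF sites with a p53 peak, promoter minus other, averaged 0.0564 points and 0.0164 points in p53 lists of equal length. Among sites with a peak in every library, limma called 0 promoter sites under each alternative that kept 2 libraries per cell type. Sites gained or lost as peaks did not enter, and with the standard errors given above this does not show that enrichment was unchanged. At an unadjusted p under 0.05 limma gave 46 promoter sites with the replicate block and 6 without normalisation between libraries, where the median of all sites moved to 0.20. The block changed no call. Depth per site was not given in the lists, so a missing peak limits each count of specific sites.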

Other observations

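Promoter CTCF sites were unevenly spread over the chromosomes, as a description without a test. Chromosomes 19, 16 and 17 had the highest shares of their CTCF sites at promoters, 17.9%, 16.01% and 14.9%, and chromosomes X and 18 the lowest, 6.31% and 6.66%. Seen from the genes, 19.7% of the genes of chromosome 16 but 13.4% of those of chromosome 19 had a promoter CTCF site, so the high share on chromosome 19 stood beside many genes (1436) rather than a high share of genes with a site. Chromosome X had a site at 8.34% of its 863 genes, and 15.2% of its 66 promoter sites were called in all 4 libraries, against 34.5% over all promoter sites. Chromosome 17 had 43.9% of its 212 promoter sites called in all 4. Of the 12 MCF10A-specific promoter sites 4 lay on chromosome 15, which held 108 of the 3155 promoter sites.

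The motif share and the share called in all 4 libraries varied with position. Sites with a summit over 1000 bp upstream had the highest values of both, 58.3% and 40.9%. Sites with a summit from 500 to 1000 bp upstream carried the motif in 44.5% of cases and were called in all 4 libraries in 33.9%, and sites within 100 bp of the TSS carried it in 35.7% and were called in all 4 in 35.7%. Downstream by 100 to 500 bp both were lower, at 32.1% and 28.2%, and over 500 bp downstream they were 38.9% and 33.9%. No explanation was tested.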
